A study of Drosophila melanogaster with 3 samples.

Results

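OdsH peaks at divergent gene pairs are the summits that fell into the shared upstream region of 2 protein-coding genes read away from each other. Of the 8700 peaks in the authors' optimal IDR set on build dm6 (the rows kept for their reproducibility between replicates), 634 had a summit within 500 bp of annotated transcription start sites (TSSs) of 2 different protein-coding genes on opposite strands, which is 7.29% of the set. Another 1735 summits were this close to a TSS but to no such pair and are called other promoter peaks here, and 6331 lay farther from any protein-coding TSS. Within the IDR set, the distance rule used neither the measured binding strength nor the base composition. The set itself had already been thresholded, and the signal value of its weakest row was 77.5. By the TSS nearest the summit on each strand, the geometry matched the name at most peaks. At 620 of the 634 (97.8%) these 2 TSSs stood head to head, with the minus-strand TSS to the left and the plus-strand TSS to the right. At 14 they stood in the reverse order, so that transcripts from them overlapped at their starts. Genes can have further TSSs, and some pairs among the 620 overlap as annotated genes, among them Pdrg1/Pal1 and ND-ASHI/Fum1. The 634 peaks belonged to 595 distinct gene pairs, 39 of which held 2 peaks, so counts below are of peaks unless pairs are named.

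The data are chromatin immunoprecipitation with sequencing (ChIP-seq) from whole white prepupae of Drosophila melanogaster, of a transgenic line that stably produces the homeodomain protein OdsH with GFP fused to its C terminus. By the sample description the antibody was directed against GFP, although the antibody label names OdsH. Chromatin was sonicated to 200 to 800 bp, males and females were mixed, and no age is given beyond the stage. The labels give 1 group of 3 biological replicates and no second stage, genotype or untagged line, so every comparison below is between classes of peaks or of genes, repeated in each replicate's own list. A whole animal holds many cell types, and a strong peak in few cells and a weaker one in many cannot be told apart.

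In a divergent promoter, a pair of genes start from neighbouring TSSs and are transcribed outward, so one stretch of regulatory DNA lies upstream of both. Such pairs are frequent in the compact fly genome, where they often carry housekeeping genes and elements bound by DREF, BEAF-32 and M1BP, factors of broadly used promoters and of domain borders. OdsH is a paired-class homeodomain protein, and homeodomains typically recognise short AT-rich words built on TAAT. In crosses between Drosophila species, OdsH is known as a hybrid male sterility gene.

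To show what these regions look like, the DNA between the 2 TSSs is printed for 8 pairs, read from the RefSeq copy of the release 6 assembly (dm6), plus strand, 5′ to 3′, with the minus-strand gene on the left and the plus-strand gene on the right. Capitals mark 5 words on either strand: TATCGATA (the DREF element), CGATA (the core bound by BEAF-32, also contained in TATCGATA), TAATTA (a homeodomain word), TATAAA (the word of the TATA box) and CAGCTG (an E-box). Matches to TATAAA were counted at any distance from a TSS, so a match is not by itself a TATA box. The first 3 are strong regions with the summit between the TSSs, which show the AT-rich DNA at the summit.
Tcs5/CHMP2B, chr3L:5139396-5139618, summit 123 bases before the TSS of CHMP2B: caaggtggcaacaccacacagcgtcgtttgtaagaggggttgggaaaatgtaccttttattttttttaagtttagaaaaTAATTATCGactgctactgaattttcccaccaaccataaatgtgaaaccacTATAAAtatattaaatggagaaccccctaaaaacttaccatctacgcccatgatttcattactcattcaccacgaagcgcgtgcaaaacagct
Art3/mRpS10, chr3R:15229409-15229664, summit at base 107 of the run: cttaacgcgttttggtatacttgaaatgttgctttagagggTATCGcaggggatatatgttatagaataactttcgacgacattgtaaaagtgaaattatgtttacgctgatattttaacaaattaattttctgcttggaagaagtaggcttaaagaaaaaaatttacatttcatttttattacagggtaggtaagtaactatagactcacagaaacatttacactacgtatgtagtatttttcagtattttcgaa
CG5611/Mtl, chr3R:27636061-27636360, the first 300 bases after the TSS of CG5611, summit at base 118: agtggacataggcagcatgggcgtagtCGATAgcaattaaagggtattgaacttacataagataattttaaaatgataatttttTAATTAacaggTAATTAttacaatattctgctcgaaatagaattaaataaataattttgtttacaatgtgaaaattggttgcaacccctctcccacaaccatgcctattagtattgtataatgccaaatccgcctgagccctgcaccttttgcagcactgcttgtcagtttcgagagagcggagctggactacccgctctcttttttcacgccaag
The strongest peak of all 634 is shown as a contrast, because its interval is GC-richer and its summit lay outside, 90 bp inside Chro.
Chro/Ssl1, chr3L:22878985-22879088: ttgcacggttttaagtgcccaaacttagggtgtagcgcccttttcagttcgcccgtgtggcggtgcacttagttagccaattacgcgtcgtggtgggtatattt
Mnat9/CG1792 held a strong summit 14 bp from a TSS with none of the 5 words.
Mnat9/CG1792, chr3R:31616161-31616302, summit at base 14: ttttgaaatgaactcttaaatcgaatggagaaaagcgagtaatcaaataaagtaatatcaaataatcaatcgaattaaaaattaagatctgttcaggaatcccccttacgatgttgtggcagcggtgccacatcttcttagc
The 2 strongest pairs with TATCGATA within 50 bp of the summit follow, and 1 of the 3 weakest peaks, which also has that word.
CG32856/Rbf2, chr3R:15965352-15965445, summit at base 18: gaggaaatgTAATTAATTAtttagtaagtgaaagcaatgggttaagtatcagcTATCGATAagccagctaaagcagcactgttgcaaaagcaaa
RpS25/CG4820, chr3R:11216288-11216534, summit at base 51: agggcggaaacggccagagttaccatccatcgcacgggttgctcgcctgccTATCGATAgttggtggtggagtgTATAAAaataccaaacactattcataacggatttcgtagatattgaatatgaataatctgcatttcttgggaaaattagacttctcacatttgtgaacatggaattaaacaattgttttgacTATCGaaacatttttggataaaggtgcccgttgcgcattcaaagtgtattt
l(1)10Bb/Gapvd1, chrX:11325309-11325384, summit at base 44: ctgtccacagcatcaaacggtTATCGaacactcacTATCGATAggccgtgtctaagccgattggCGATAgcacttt

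These 8 runs differ in the words they hold. At Tcs5/CHMP2B a TAATTA and a reversed CGATA overlap in 1 stretch, and a TATAAA stands farther right. At CG5611/Mtl a pair of TAATTA words stand just left of the summit. The Art3/mRpS10 run has 1 CGATA word far from its summit, and the 50 bp to either side of that summit hold none of the words searched. The weak l(1)10Bb/Gapvd1 run has 4 matches to CGATA, counting both strands, in 76 bases.

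Strength is given as the signal value that the authors' peak caller wrote for each peak, in the caller's own unit, which orders peaks within 1 list and has no common scale between lists. The strongest divergent-pair peak lay at Chro and Ssl1 (chr3L:22878685-22879137, rank 4 of 8700). Chro encodes a chromodomain protein of interbands and domain borders, and Ssl1 a subunit of the general transcription factor TFIIH. Its signal value was 2454 in the IDR set, 647 in replicate 1, 1042 in replicate 2 and 772 in replicate 3, where it ranked 5, 4 and 5. Its summit moved by at most 4 bp between the lists. The next peak, at Tcs5 (a kinase of the complex that modifies tRNA) and CHMP2B (a subunit of the membrane-remodelling ESCRT-III complex), stood near the middle between TSSs 224 bp apart, 123 bp from that of CHMP2B. Its signal values were 2339 in the IDR set and 556, 958 and 839 in replicates 1, 2 and 3.

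Mitochondrial ribosomal protein genes stood at 3 of the 12 strongest. Of all 1226 genes at divergent-pair peaks, 27 encode such proteins, and a difference between these 2 counts was not tested. The peak at mRpS23 and CenG1A (an Arf GTPase-activating protein) had signal values of 607, 988 and 641 in replicates 1 to 3, and 2233 in the IDR set. At Art3 (a protein arginine methyltransferase) and mRpS10 the values were 524, 801 and 720, and 2037 in the IDR set. At mRpL23 and CG9004 they were 415, 673 and 590, and 1671 in the IDR set. In each replicate these 3 peaks were among the 41 strongest of the list. The peak at CG5611 and Mtl, a Rac-family GTPase, had 504, 740 and 664, and 1907 in the IDR set. The remaining 6 of the 12, at Pex11ab/CG8320, Fbw5/CG9147, CG8372/CG8360, Pdrg1/Pal1, CG5757/CG5098 and Mnat9/CG1792, ran from 1832 down to 1507. The 12 were named as the strongest among peaks supported by all 3 replicates. Pex11ab takes part in peroxisome division, Fbw5 is an F-box protein and Pal1 is a lyase that amidates peptides.

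At the other end, 3 peaks with a signal value of 77.8 were each supported by 1 replicate, where support means at least 1 bp of overlap with that replicate's 8700 strongest rows. The peak at Gnpat (an enzyme of ether lipid synthesis) and CG5112 had 34.3, 24.6 and 16.9 in the 3 replicates. At l(1)10Bb and Gapvd1 (an endocytic regulator) the values were 17.0, 40.6 and 17.2. Replicate 1 supported the former and replicate 2 the latter.

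As a class, the 634 peaks were stronger than other promoter peaks in every list. Its median strength was a signal value of 237 (quartiles 143 and 430, range 77.8 to 2454) against 167 for other promoter peaks (quartiles 109 and 312) and 144 for peaks away from promoters, a ratio of 1.42 between the first 2 classes. In the replicates' own 8700 strongest rows, which held 842, 760 and 752 such peaks (785 ± 49.8, SD, n = 3), the medians were 55.7 against 45.8, 91.5 against 72.4 and 80.8 against 52.0. The ratio was 1.22, 1.26 and 1.55, with a mean of 1.34 ± 0.183 (SD, n = 3; exact sign-flip permutation test over replicates, two-sided, p = 0.25). With 3 replicates that test cannot go below 0.25, so it cannot reach 0.05 for any difference reported here, and a value of 0.25 means that all 3 replicates differed in the same direction. The overlap between classes was wide: the strongest other promoter peak, at 3230, exceeded every divergent-pair peak.

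Divergent pairs were more frequent toward the strong end of the set. When the 8700 peaks were ordered by signal value and cut into 5 classes of 1740, 243 peaks of the strongest class (14.0%), then 151 (8.68%), 114 (6.55%), 74 (4.25%) and 52 (2.99%) were at divergent pairs. Other promoter peaks made up 25.7% of the strongest class and between 17.4% and 19.5% of the others. Of the 100 strongest peaks 29 were at divergent pairs, and of the replicates' own 100 strongest 27, 26 and 35 (29.3 ± 4.93, SD, n = 3). Near the edge of the distance rule, the 33 peaks whose farther TSS was over 450 bp away had a median signal value of 152. That was below the 167 of other promoter peaks. The 29 peaks just outside, at over 500 to 550 bp, had 131.

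**Figure D1:**
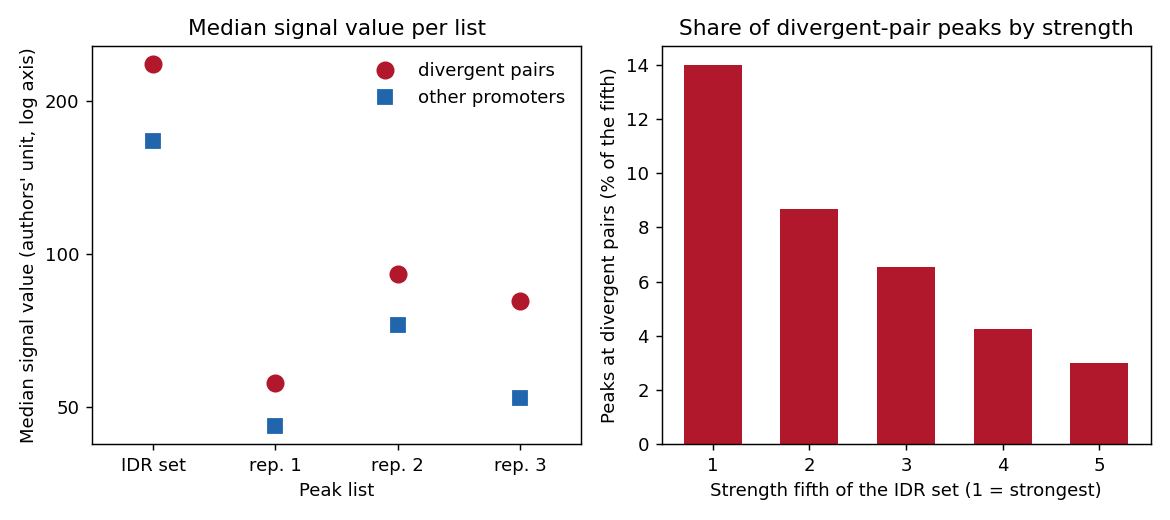
Left, median signal value (authors' unit, logarithmic axis) of peaks at divergent pairs (circles) and at other promoters (squares) in the IDR set and in each replicate's 8700 strongest rows; right, the share of peaks at divergent pairs in each of 5 strength classes of the IDR set. Circles lie above squares in all 4 lists, and the bars step down from 14.0% to 2.99%.

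Support in the replicates was high and followed strength. All 3 replicates supported 515 of the 634 peaks (81.2%), 2 replicates supported 86, 1 supported 28 and none supported 5, while all 3 supported 72.2% of other promoter peaks. Replicates 1, 2 and 3 supported 92.6%, 92.9% and 89.7% of divergent-pair peaks and 87.5%, 90.2% and 85.6% of other promoter peaks. The difference was 3.96 ± 1.20 percentage points (SD, n = 3; exact sign-flip permutation test, p = 0.25). It did not hold within strength classes: support by all 3 was 97.5% against 98.7% in the strongest class, 91.4% against 94.4%, 82.5% against 88.0% and 47.3% against 51.5% in the classes after it, and 21.2% against 14.8% in the weakest. Among the 4350 strongest peaks the difference was -0.711 points. The IDR set was itself derived from these replicates, so part of this support is built in. Where a pair held 2 peaks close together, 1 replicate row can overlap both and count as support for each. Weak second peaks supported by all 3 included those at ND-SGDH/RhoGAP68F (90.7, beside 292) and Miro/spas (90.6, beside 218). The part that this plays in the shares, also in the weakest class, was not tested.

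Where a replicate saw a peak, it placed the summit close by. The median distance between the IDR summit and the replicate's own summit was 15.0 bp in each of the 3 replicates, and 86.6%, 89.3% and 88.2% of the summits lay within 50 bp. Across peaks, Spearman's rho between the IDR signal value and the replicate's was 0.947 (633 peaks), 0.965 (625) and 0.945 (587), a description only, since the replicates enter the IDR set and share 1 control alignment. Replicate 3 stood apart in 1 respect. In its full list of 30000 rows, 47 of the 634 peaks (7.41%) had no overlapping row at all, against 1 in replicate 1 and 9 in replicate 2.

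Those 47 were not all weak peaks. Their median signal value was 132, and 20 of them were among the 4350 strongest of the set. The strongest, at CG7810 and CG7806 (458 in the IDR set), had 107 in replicate 1 and 202 in replicate 2. At Sf3b6, a subunit of the splicing factor SF3B, and Tnpo, a nuclear import receptor, the value was 373 in the IDR set, 88.6 in replicate 1 and 141 in replicate 2. The peak at Dref, which encodes the factor that binds TATCGATA, and RpL13 had 284, with 79.0 in replicate 1 and 114 in replicate 2. In replicate 3, no row covered any of these 3. Of other promoter peaks 5.19% had no row in replicate 3, and of peaks away from promoters 1.85%. With all 30000 rows of each list, the support difference between divergent pairs and other promoters was -0.922 points.

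The summits lay between the TSSs more often than beyond them. Of the 620 peaks at head-to-head pairs, 523 summits (84.4%) fell between the 2 TSSs, 43 lay beyond the plus-strand TSS and 54 beyond the minus-strand TSS. The replicates' own lists gave 85.2%, 83.5% and 84.1% (84.2 ± 0.857, SD, n = 3). The distance rule favours this position: on average 52.6% of the positions from which both TSSs can be reached within 500 bp lie between them, and in the replicates 51.5%, 49.8% and 52.0%. Among the 523, 372 (71.1%) were in the middle 50% of the interval. The rule favours the middle too: at the 103 peaks with TSSs over 500 bp apart, positions close to 1 TSS are out of reach of the other. No share to be expected from the rule was computed for the middle, so 71.1% is a description only. Neither strand was preferred by much, with 332 summits nearer to the plus-strand gene, 298 nearer to the minus-strand gene and 4 at equal distance.

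The distance to the nearer TSS was short and narrow in spread. Its median was 104 bp (quartiles 64.0 and 148), and the farther TSS was at a median of 220 bp (157 and 323). At other promoter peaks the nearest TSS was 210 bp away (117 and 326). The replicates gave 98.0 against 206 bp, 98.5 against 202 bp and 100 against 209 bp, a difference of -107 ± 2.65 bp (SD, n = 3; exact sign-flip permutation test, p = 0.25). A summit with TSSs on both sides is bound to be near one of them when the interval is short, and that part of the difference was not tested. Of divergent-pair summits 57.1% were 50 to 150 bp from the nearer TSS, against 25.6% of other promoter summits. The side was alike: 84.4% of divergent-pair summits and 82.9% of other promoter summits were upstream of the nearer TSS.

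**Figure D2:**
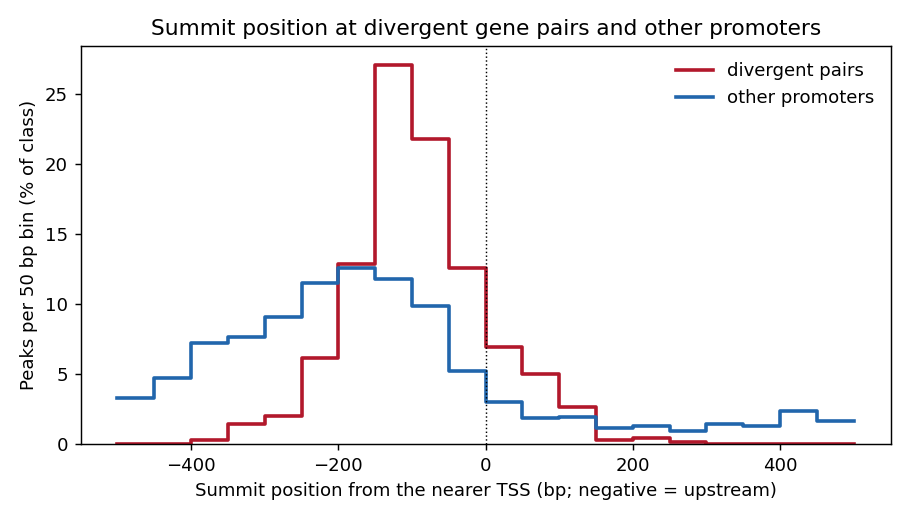
Position of summits from the nearer TSS in bins of 50 bp (negative values upstream), as a percentage of the 634 peaks at divergent pairs and of the 1735 other promoter peaks. The divergent-pair curve is concentrated upstream around its median of -100 bp, while the other promoter curve is broader around a median of -174 bp.

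Over these 620 peaks the interval between the TSSs was 316 bp at the median (quartiles 236 and 442, range 6 to 853 bp) and decided where a summit could stand. For the 172 peaks at pairs over 200 to 300 bp apart, 90.7% of summits were between the TSSs, where 34.9% of the allowed positions lay, at a median of 35.8 bp from the midpoint. For the 56 peaks at pairs 1 to 100 bp apart, 19.6% were between, against 6.35% of positions, and the summit was at a median of 110 bp from the farther TSS. As the interval widened, the nearer TSS moved from 52.0 bp (1 to 100 bp apart) and 39.5 bp (over 100 to 200 bp) to 96.5, 118 and 124 bp in the next 3 classes and 200 bp where the TSSs were over 500 bp apart. The GC content at the summit was 36.0% for the tightest pairs and between 29.2% and 33.3% in the other classes.

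Strength differed with spacing. The median signal value was 301 at 1 to 100 bp, 224 at over 100 to 200 bp, 294 at over 200 to 300 bp, 266 at over 300 to 400 bp, 187 at over 400 to 500 bp and 157 above that. In the replicates, the class at over 200 to 300 bp had medians of 61.9, 105 and 98.8 and the class above 500 bp 48.4, 73.4 and 59.1. The wider class was the weaker one in each list, and the order of the tighter classes varied between lists. Narrow intervals also appear among the named pairs. At SerRS, which charges serine tRNA, and CG17260, the TSSs nearest the summit were 8 bp apart, although the annotated genes overlap. Their peak had 158, 273 and 275 in the replicates. The 14 peaks at pairs with overlapping starts included those at CG4741/Adck1 (264, 487 and 318), CG31808/Cyt-c-d (241, 454 and 215) and CG5846/CG4658 (171, 315 and 193). Cyt-c-d encodes the cytochrome c used in the testis.

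**Figure D3:**
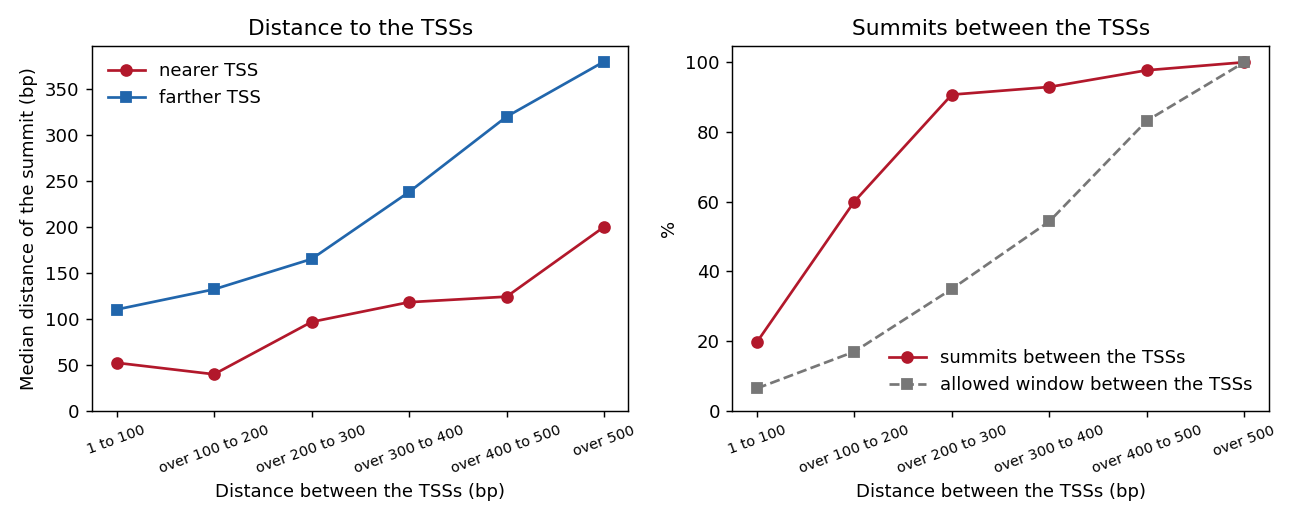
Left, median distance in bp from the summit to the nearer and the farther TSS for 6 classes of peaks at head-to-head pairs by distance between the TSSs; right, the percentage of summits between the TSSs beside the percentage of the allowed window that lies between them. The summit curve is above the window curve from 19.6% against 6.35% in the tightest class to 97.7% against 83.2% at over 400 to 500 bp, and both reach 100% in the widest class.

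Seen from the annotation, 2030 pairs of protein-coding genes on opposite strands had TSSs within 500 bp of each other, and 562 of them (27.7%) had a divergent-pair peak. Pairs over 200 to 300 bp apart (165 of 529, 31.2%) and over 300 to 400 bp apart (142 of 394, 36.0%) were bound more often than those 1 to 100 bp (87 of 419, 20.8%) or over 100 to 200 bp apart (72 of 354, 20.3%). The class over 400 to 500 bp had 69 of 257 (26.8%) and the overlapping pairs 27 of 77 (35.1%). By chromosome arm the share was 29.5% on 2L, 20.7% on 2R, 31.1% on 3L, 31.1% on 3R and 23.4% on X, with 2 of 7 pairs on chromosome 4.

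Of all 13945 protein-coding genes, 2652 (19.0%) had an IDR summit within 500 bp of a TSS. The 3878 genes with a partner TSS on the opposite strand within 500 bp were bound more often than the 10067 without one, 30.0% against 14.8%. In the replicates' own lists the shares were 39.0% against 16.1%, 36.4% against 15.5% and 34.5% against 15.2%, a difference of 21.0 ± 1.86 percentage points (SD, n = 3; exact sign-flip permutation test, p = 0.25). A gene with a partner has a second promoter near its own, so 1 summit can count for both. The smaller difference in the IDR set, 15.2 points, was in the same direction.

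Divergent-pair summits stood in AT-rich DNA between GC-richer flanks. In windows reaching 50 bp to either side of the summit the mean GC content was 31.1%, against 49.2% in windows 500 bp to either side, and 91.6% of the peaks were below their own flanks. The dip was -18.3, -18.4 and -18.5 percentage points in replicates 1, 2 and 3 (-18.4 ± 0.108, SD, n = 3; exact sign-flip permutation test, p = 0.25). At other promoter peaks the values were 33.7% at the summit and 42.9% in the flanks, and away from promoters 31.3% and 43.2%. The classes thus differed more in the flanks than at the summit. The distance rule puts both TSSs within 500 bp of a divergent-pair summit, so flanks centred 500 bp away lay outside the interval between them. The part that this position plays in the dip and in the flank difference between classes was not tested. Low GC was not limited to bound pairs. At the midpoints of annotated head-to-head pairs compared below, GC content was 28.0% with a peak and 31.6% without.

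At the summit itself the divergent pairs were lower in GC than other promoters, with a difference of -2.59 percentage points in the IDR set. In the replicates the means were 31.5% against 34.2%, 31.2% against 34.4% and 31.1% against 33.8% (difference -2.90 ± 0.288, SD, n = 3; exact sign-flip permutation test, p = 0.25). Among summits within 150 bp of a TSS the difference was -5.53 points (31.5% for 483 divergent-pair peaks, 37.0% for 586 other promoter peaks). The class also varied within itself, from 9.90% to 63.4% GC with a median of 29.7% (quartiles 24.8 and 35.6). At 51 summits the window had 20% GC or less and at 16 it had 50% or more. Stronger peaks were more AT-rich, with 29.0% GC in the strongest class and 33.7% in the weakest, and other promoter peaks likewise went from 30.5% to 36.7%.

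**Figure D4:**
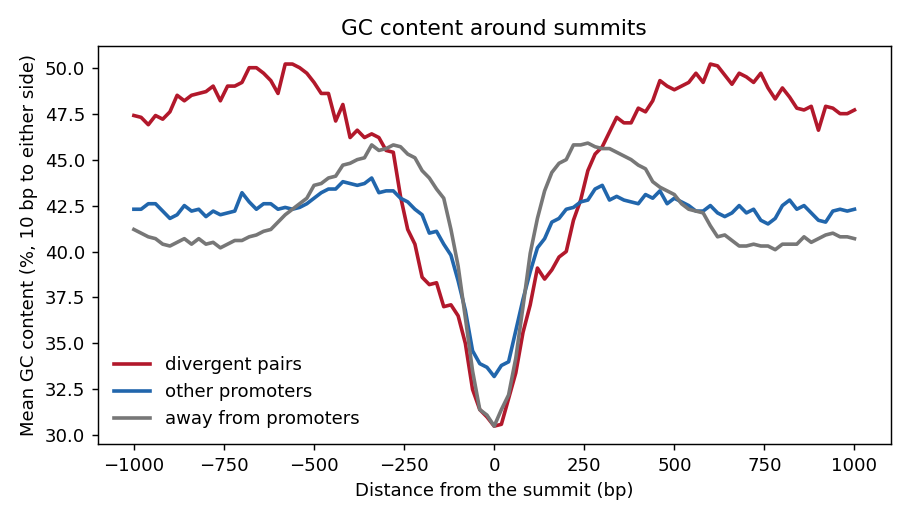
Mean GC content (percent, averaged over 10 bp to either side) against distance from the summit in bp for peaks at divergent pairs, at other promoters and away from promoters. All 3 curves dip at the summit, and the divergent-pair curve rises highest on both sides, where its flanks 500 bp away averaged 49.2%.

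The named pairs spanned this range. Windows at eIF4EHP/CG18428 (17.8% GC), CG5611/Mtl (18.8%) and Cp190/CG4338 (20.8%) were among the AT-rich ones. eIF4EHP encodes a cap-binding protein that represses translation of bound mRNAs, and Cp190 an insulator protein. At the GC-rich end stood Ripalpha/RpL7 (60.4%), with signal values of 172, 242 and 237 in the replicates, and RpS25/CG4820 (48.5%), with 104, 146 and 115. Both have a cytosolic ribosomal protein gene as a partner.

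For sequence words, 11 were searched in the same windows on both strands. TATAAA was found at 179 divergent-pair summits (28.2%), against 21.8% of other promoter summits and 5.05% of the flanks of divergent-pair summits. TAATTA was at 87 (13.7%), against 10.3% and 2.60%. Both words are made of A and T alone and the windows are AT-rich, and the part that base composition plays in these shares was not tested. In the replicates, TAATTA was at 14.5% ± 0.0109 of divergent-pair summits and 9.22% ± 0.415 of other promoter summits (SD, n = 3; exact sign-flip permutation test, p = 0.25). TAATTG, another homeodomain word, was at 9.78% against 10.7%, and the sign of that difference varied between replicates. The run AAAAAAAA was at 7.57% against 10.1%.

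The DREF element was rare at the summits but more frequent than at other promoter peaks. TATCGATA was at 22 divergent-pair summits (3.47%), against 1.61% of other promoter summits, 0.174% of peaks away from promoters and 0.394% of the flanks. The replicates gave 4.28%, 3.42% and 3.59% against 1.85%, 1.39% and 2.01%, a difference of 2.01 ± 0.425 percentage points (SD, n = 3; exact sign-flip permutation test, p = 0.25). Restricting both classes to summits within 150 bp of a TSS left 4.35% against 3.75%. The word was also at 2.28% of the 19607 windows of the same width centred 100 bp upstream of every protein-coding TSS. CGATA was at 132 summits (20.8%, 110 of them without TATCGATA), against 14.9% of other promoter summits and 19.5% of those upstream windows.

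The 22 peaks with TATCGATA were weaker and closer to a TSS. The median signal value of these was 154, and 243 without the word, their windows held 39.1% GC against 30.8%, and their nearer TSS was at 47.0 bp against 106 bp. The word itself was within 100 bp of a TSS at 21 of the 22, and 2 of the 22 were in the strongest class. Only words within 50 bp of the summit were counted. Farther from the summit, TATCGATA also stood between the TSSs at mRpS23/CenG1A (rank 11) and Fbw5/CG9147 (rank 31). The strongest of the 22 was the peak at CG32856 and Rbf2, a retinoblastoma-family repressor, with signal values of 158, 218 and 170 in the replicates. By contrast, the 87 peaks with TAATTA had a median signal value of 271 against 232 and a GC content of 26.5% against 31.9%. Among the remaining words, CAGCTG was at 29 summits (4.57%, other promoters 2.82%), CATCNCTA (a form of the core-promoter element called motif 7) at 16 (2.52%, 1.90%) and GGTCACAC (part of motif 1, bound by M1BP) at 7 (1.10%, 0.865%). GAGAGAG, bound by GAGA factor, was at 2 (0.315%, 2.31%), and CACGTG at 4.

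**Figure D5:**
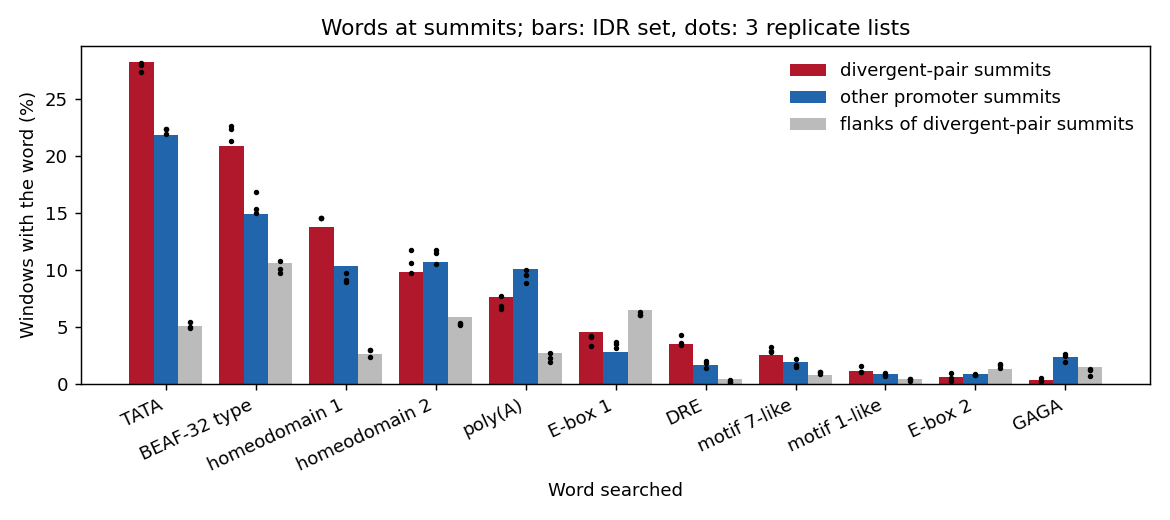
Percentage of windows with each of 11 words (DRE stands for TATCGATA, BEAF-32 type for CGATA, TATA for TATAAA, homeodomain 1 and 2 for TAATTA and TAATTG, E-box 1 and 2 for CAGCTG and CACGTG) at divergent-pair summits, other promoter summits and windows 500 bp from divergent-pair summits; bars are the IDR set and dots the 3 replicates' lists. For the TATA, BEAF-32 type, homeodomain 1 and DRE words the divergent-pair bar is above both others. The same holds, at low shares, for CATCNCTA (motif 7-like) and GGTCACAC (motif 1-like).

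Bound and unbound pairs were also compared at a place that does not depend on where a summit was called. It was the window 50 bp to either side of the midpoint of annotated head-to-head pairs over 100 to 500 bp apart. The midpoint is nearer to both TSSs in tighter pairs, and these were bound less often. The bound share was 20.3% at over 100 to 200 bp, against 31.2%, 36.0% and 26.8% in the wider classes. The 448 pairs with a peak had 28.0% GC and the 1086 without one 31.6%. The replicates gave 27.8% against 32.3%, 27.9% against 32.0% and 27.8% against 32.0% (difference -4.30 ± 0.233 percentage points, SD, n = 3; exact sign-flip permutation test, p = 0.25). CGATA was less frequent at bound midpoints, 12.9% against 21.6%, and in the replicates 13.6% against 22.7%, 13.4% against 22.2% and 12.6% against 22.5% (difference -9.28 ± 0.559 points, SD, n = 3; exact sign-flip permutation test, p = 0.25). With pairs over 200 to 500 bp apart the differences were smaller, -2.99 points in GC and -4.06 in CGATA. With 51 bp windows they were -3.94 and -4.71.

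Other words differed at midpoints in both directions. TATCGATA was at 1.79% of bound and 3.04% of unbound midpoints (replicates -1.40 ± 0.337 points), and GGTCACAC at 0 of 448 bound midpoints and 1.66% of unbound ones. TAATTA was at 17.2% against 12.3% (replicates 6.67 ± 0.406 points) and TATAAA at 32.6% against 25.1% (6.62 ± 1.25 points). Each of these 4 differences had an exact sign-flip permutation p of 0.25 over 3 replicates. The part that the spacing of the pairs plays in them was not tested. Bound midpoints were also lower in GC, and the part of base composition in these differences and in that of CGATA was not tested either. The run AAAAAAAA was at 10.3% of bound and 6.35% of unbound midpoints, and CACGTG at 1.56% and 0.645%. GAGAGAG was at 0.223% and 1.93%, and TAATTG at 10.9% and 12.5%. TAATTA and TATAAA were thus more frequent, and GGTCACAC, TATCGATA and CGATA less frequent, at midpoints of bound pairs. At the summits, by comparison with other promoter peaks, these last 5 words were all the more frequent ones in the IDR set.

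The genes at divergent-pair peaks numbered 1226, or 8.79% of protein-coding genes, and 15 lists of genes were counted beside that share. Among genes of the translation apparatus, 27 of 73 mitochondrial ribosomal proteins (37.0%) were at such a peak, and 24, 28 and 27 in the replicates' own lists. These proteins form the ribosome that makes subunits of the respiratory chain, and 53 of their 73 genes had a divergent partner. Beside the 3 strongest named above, mRpL24 had a signal value of 990, mRpS2 733 and mRpL20 706. Cytosolic ribosomal proteins had 23 of 86 (26.7%), with 30, 25 and 27 in the replicates and 34 genes with a partner.

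The cytosolic ribosomal peaks were of middle strength. RpL7 had the highest signal value, 661, followed by RpL34b (581), RpL32 (517) and RpS27 (507), whose partner Nup37 is a nuclear pore protein. RpL34a, a paralog of RpL34b, had a peak of its own at 244, and how reads shared by paralogs were placed is not given in the sources used here. Aminoacyl-tRNA synthetases, which charge tRNAs, had 9 of 35 (25.7%), led by SerRS at 709, IleRS at 558 and GluProRS at 500. Translation initiation factors, by contrast, had 2 of 44 (4.55%): eIF4EHP at 1301 and eIF3h at 405.

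Genes of the transcription apparatus were next. Of 55 Mediator and RNA polymerase subunits, 13 (23.6%) were at a divergent-pair peak, with 15 in each replicate. MED30, shared with the translesion polymerase gene Rev1, had 200, 294 and 204 in the replicates and 709 in the IDR set, MED27 had 608, Polr3E (RNA polymerase III) 644 and Polr2B, the second-largest subunit of RNA polymerase II, 542. Of 16 insulator and promoter factors, 5 (31.2%) were: Chro, Cp190 (872 in the IDR set; 233, 378 and 272 in the replicates), M1BP (419; 115, 141 and 154), Dref (284) and pzg (183). Cp190, Chro and M1BP proteins are themselves found at promoters and domain borders.

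The other lists of widely expressed genes lay between 8.33% and 18.2%, beside the 8.79% of all genes. Splicing factors had 6 of 33 (18.2%), nuclear pore proteins 4 of 22 (18.2%), oxidative phosphorylation subunits 14 of 90 (15.6%, led by ND-ASHI of complex I at 798), DNA replication factors 4 of 33 (12.1%, led by the polymerase delta subunit PolD2 at 998) and proteasome subunits 4 of 48 (8.33%). Of 30 ecdysone response genes, 2 were (6.67%, near the share of all genes): usp, which encodes the partner of the ecdysone receptor (61.6, 105 and 66.5 in the replicates), and Hr3, a nuclear receptor induced by ecdysone (77.1, 102 and 69.1). In this list 15 of 30 genes had an IDR summit within 500 bp of a TSS, at a divergent pair or not, beside 19.0% of all genes. Over the 15 lists that count ran from 1 of 180 chemoreceptors to 55 of 86 cytosolic ribosomal proteins. None of 85 homeobox genes, 123 cuticle proteins and 180 chemoreceptors was at a divergent-pair peak, and 1, 4 and 16 of them had a divergent partner at all. The lists thus differ in how many members have a partner within 500 bp.

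Counted among genes with such a partner, the order of the lists changed. Of all 3878 paired genes 1064 (27.4%) were at a divergent-pair peak. Among paired list genes the share was 58.8% for cytosolic ribosomal proteins (20 of 34), 55.6% for insulator and promoter factors (5 of 9), 49.1% for mitochondrial ribosomal proteins (26 of 53), 36.4% for aminoacyl-tRNA synthetases, 36.1% for Mediator and RNA polymerase and 31.7% for oxidative phosphorylation. Splicing factors (22.7%, 5 of 22), nuclear pore proteins (21.4%, 3 of 14) and DNA replication factors (17.6%, 3 of 17) were below the 27.4% of all paired genes. So were proteasome subunits (16.7%, 4 of 24) and translation initiation factors (11.1%, 2 of 18). With so few paired genes in each of these lists, a single gene moves the share by several points. No difference from 27.4% was tested.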

How the data were processed

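ChIP-seq of OdsH-GFP was analysed from the authors' deposited peak lists for 3 biological replicates (1 group, per the labels). Per the labels and the lists of files that accompany the libraries, the replicate lists share 1 control alignment, and assembly dm6 was used here. Signal values are those of the authors' peak caller, as deposited, and other deposited columns such as the summit offset were taken unchanged. Signal values were compared within 1 list only. Neither the aligner nor the caller is named (not given in the sources used here). Reads were not analysed here, so the depth is unknown and no depth-based interval is given. Lists on other builds were not used here.

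Protein-coding genes and their TSSs were read from Ensembl 115 (BDGP release 6), without transposable elements, on 6 chromosome arms. A peak belonged to the class when its summit lay within 500 bp of TSSs of 2 genes on opposite strands, and the nearest TSS of each strand gave distances. Each replicate's list holds 30000 rows, of which the 8700 strongest were used. Sequence windows reached 50 bp to either side, with flanks 500 bp away. Differences were computed in each replicate's own list and tested by an exact sign-flip permutation test over the 3 replicates, two-sided (on the log2 scale for ratios). Scripts used Python 3.11.15, numpy 2.4.6, pandas 2.3.3 and scipy 1.17.1 and were tested on simulated data.

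Members, words and gene lists were chosen with earlier results of these data known. Named pairs were the 12 strongest, the 3 strongest with overlapping starts, the 3 strongest with TATCGATA, the 3 weakest (1 of them is not reported here) and up to 3 genes per list with the strongest peak. Further named list genes, the pairs without a row in replicate 3, the midpoint comparison and the restriction to summits within 150 bp of a TSS were chosen after the values were seen. Alternatives covered the TSS window, TSS choice, peak strength, overlap rule, sequence window and each replicate left out.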

Additional observations from a re-analysis of the deposited data

How the results depend on the processing

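Of 93 alternative values, 86 kept the direction or stayed within 1.5 times or 1 SD of the main value, 5 moved and 2 reversed. The count of divergent-pair peaks was 366 with a 250 bp window. The support difference reversed to -0.711 points among the 4350 strongest peaks and to -0.922 with all rows of the replicate lists. The share of summits between the TSSs was 82.2% with 250 bp, 82.1% with 1000 bp, 78.9% with each gene's most upstream TSS and 82.9% among the 4350 strongest. The signal ratio kept its direction, from 1.26 to 1.71. The GC difference ran from -1.10 (1000 bp) to -5.53 points (nearer TSS within 150 bp) and was -4.67 with 250 bp. The TATCGATA difference was 0.912 points with 250 bp, 1.08 with the most upstream TSS, 1.06 with windows reaching 25 bp and 4.74 with 100 bp to either side, and 0.594 with the nearer TSS within 150 bp, where the replicates did not all differ in 1 direction (exact sign-flip permutation p = 0.50). Where no value above shows it, the cause was not tested.

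Without 1 replicate in turn, the means of the others were 756 to 801 peaks, a signal ratio of 1.24 to 1.41, a support difference of 3.40 to 4.60, 83.8% to 84.6% between, a GC difference of -3.00 to -2.74, a dip of -18.5 to -18.3, a TATCGATA difference of 1.80 to 2.23 and 20.1 to 21.9 points between paired and unpaired genes. At pair midpoints the differences were -4.39 to -4.17 points in GC and -9.49 to -8.96 in CGATA. No paired analysis was possible because the labels give 1 group. Peaks and genes are not replicates, the permutation test over 3 replicates cannot reach 0.05, and the replicates share their control with each other and their reads with the IDR set.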
